A study of Mus musculus with 18 samples.

Results

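Epithelia that face bile, gut contents or air secrete a set of proteins that kill, trap or bind microbes and shield the cells beneath. The 8 genes described here were grouped as epithelial antimicrobial and defence proteins: Reg3b, Reg3g, Slpi, Asprv1, Pigr, Muc1, Clu and Wfdc2. That name is a heading. Not every member is secreted or acts on microbes, and not every member was highest in epithelial cells here. The genes were taken by symbol from a deposited table of 54532 genes. They are treated as chosen by their FPKM differences in biliary epithelial cells after bile duct ligation, which were known at the time, although no source states the values used. In that contrast their values are a description, with no test. The contrasts in the other cells, and those between cell types, were tested, but they come from the same table, whose earlier results were known. Their p-values are therefore not independent of the choice.

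RNA with a poly(A) tail was sequenced from 3 kinds of cells taken from mouse liver. These were Kupffer-like cells (Kupffer), which take their name from the resident macrophages of the liver, primary hepatocytes (MPH), and the biliary epithelial cells that line the ducts (BECs). Mice had either a sham operation (Sham) or bile duct ligation (BDL), which stops the flow of bile into the gut, and each of the 6 groups had 3 libraries. The sources used here do not give genotype, strain, age, the time after ligation or the way the cells were separated. The titles carry a number that MPH and Kupffer libraries partly share. No label says whether that number is an animal, so a p-value here reflects the spread among libraries, which may in part be technical.

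Reg3b and Reg3g are C-type lectins that bind bacterial cell walls, and both are induced in epithelia by cytokines that signal through STAT3. Slpi and Wfdc2 share the whey acidic protein fold, and Slpi blocks neutrophil elastase. Pigr, the polymeric immunoglobulin receptor, carries dimeric IgA across epithelium into bile, in rodents through hepatocytes as well as bile duct cells. Muc1 is a mucin anchored in the apical membrane, Clu (clusterin) is a secreted chaperone that also restrains complement, and Asprv1 is an aspartic protease of the outer epidermis that processes filaggrin.

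Values are FPKM, which scale the fragments of a gene to its length and to a size factor of the library, as deposited. Differences are on the log2(FPKM + 1) scale, which understates the change of genes with low values, and are given ± SE. A gene entered a test where at least 3 libraries of the comparison reached an FPKM of 1, and was called at an adjusted p under 0.05. The reads behind each value could be recovered from the table, and their total in genes ran from 15455411 to 20583319 per library. The defining markers fitted the labels in level. Sham means were 49899 FPKM for Alb in MPH, 478 for Krt19 in BECs (3.05 in MPH) and 1626 for Clec4f in Kupffer. MPH also held Clec4f at 733, and their summed Kupffer cell markers in Sham spanned 2271 to 9582, against 7759 to 9094 in Kupffer. The third BDL library of each cell type stood apart. In BECs it had 5409 FPKM over 12 pancreatic acinar markers, while the other libraries had 15.1 to 1329. In Kupffer it had 2835 FPKM over 11 Kupffer cell markers, against 18230 and 12835 in the other BDL libraries. In MPH it had 1656 over 10 intestinal markers, 5 of them at 0, against at most 97.2 in the other libraries, of which Apoa4, an apolipoprotein that hepatocytes make too, had 1585. Where a difference of a member leans on one of these libraries, its value without it is given as well. Libraries of both sexes, read from Y-linked genes, were in every group. BECs had 2 male libraries of 3 in Sham and 1 of 3 in BDL.

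**Figure D1:**
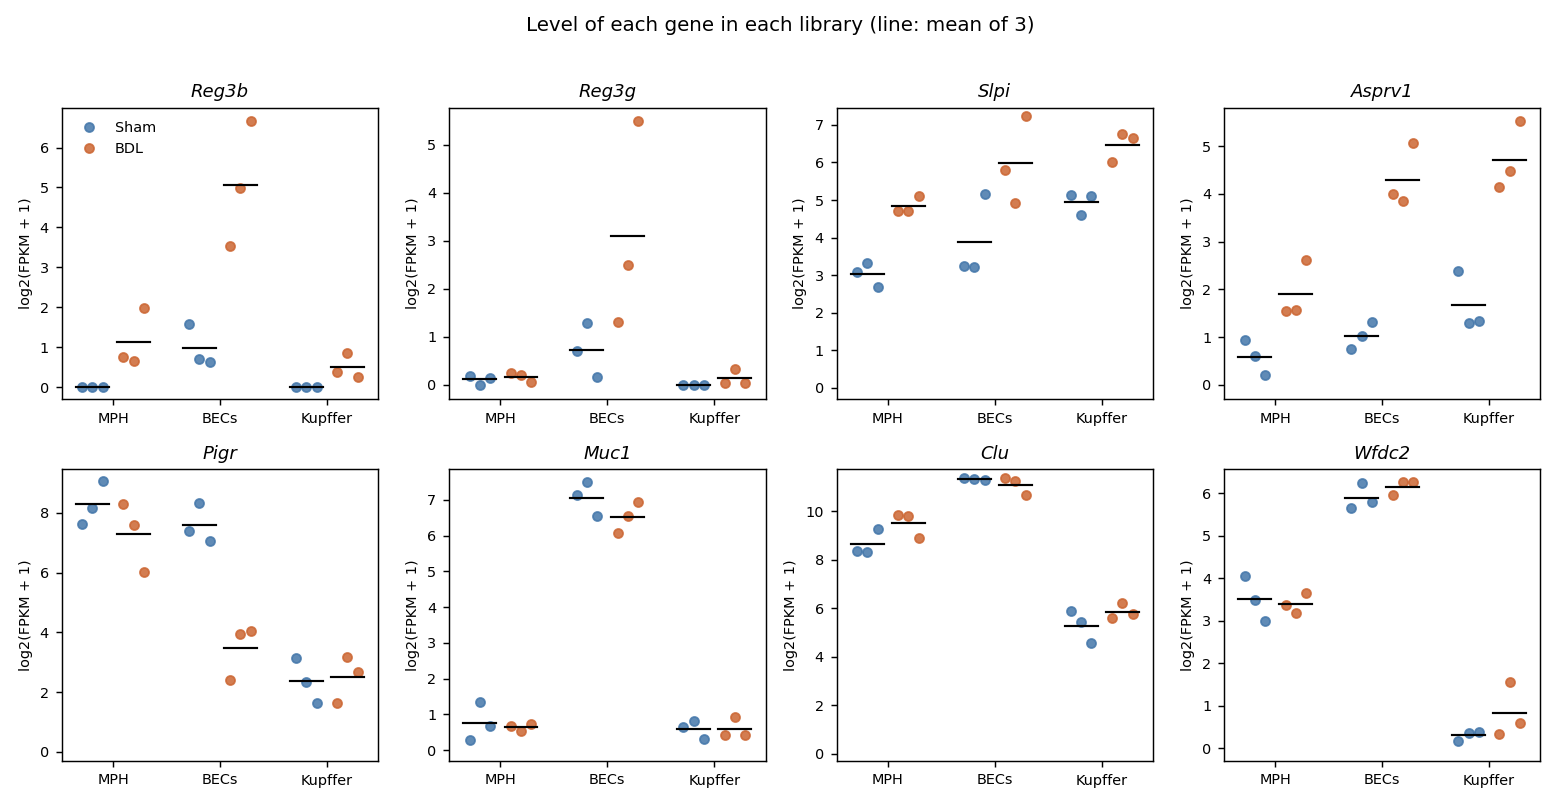
Level of the 8 genes as log2(FPKM + 1), with 1 point per library, Sham in blue, BDL in orange and a line at the mean of 3 libraries. Muc1, Clu and Wfdc2 were highest in BECs, Reg3b and Reg3g were low outside the BECs BDL group, the means of Slpi and Asprv1 were higher in BDL in each cell type, and Pigr in BECs was lower in all 3 BDL libraries than in Sham.

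The Reg3 lectins were close to absent before ligation and their values were highest in BECs after it. Reg3b (chr6:78370657-78373466, + strand, GRCm38) had 1.98, 0.633 and 0.550 FPKM in the 3 BECs Sham libraries and 10.7, 30.8 and 100.2 in the BDL libraries. All BDL libraries were above all Sham libraries, and the BDL mean was 44.7 times the Sham mean. The log2 difference was 4.09 ± 0.77, and 3.29 without the third BDL library. Reg3g (chr6:78466269-78468872, − strand) had 0.619, 1.43 and 0.124 FPKM in Sham and 1.47, 4.64 and 44.0 in BDL. Its highest Sham library lay just under its lowest BDL library. The log2 difference of Reg3g was 2.38 ± 1.05, and 1.19 without the third BDL library.

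Acinar cells of the pancreas are a strong source of Reg3 transcripts in injury, and acinar markers varied between the BECs libraries. Their sums were 1329, 214 and 51.6 FPKM in Sham and 341, 15.1 and 5409 in BDL. The third BDL library was highest in the acinar markers, in Reg3b and in Reg3g. Among the Sham libraries, the first, at 1329, was highest in acinar markers and in Reg3b, at 1.98 FPKM. Reg3g was highest in the second Sham library. The second BDL library had the lowest sum of the 6, with 9 of 12 acinar markers at 0, and Reg3b at 30.8. The part of acinar RNA in the Reg3 values was not tested. Both female BDL libraries had more Reg3b and Reg3g than the male one. With sex as a covariate, the difference of Reg3b in BECs was 3.80 and that of Reg3g 2.07.

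Outside the BECs, Reg3b was read in BDL alone. MPH had no Reg3b read in any Sham library and 0.698, 0.565 and 2.94 FPKM in BDL, from 54 reads in all. The log2 difference of Reg3b there was 1.13, and 0.70 without the third BDL library. Kupffer also had no read in Sham and 0.306, 0.823 and 0.187 FPKM in BDL, from 24 reads. The groups did not overlap in either cell type, but Reg3b stayed below the level needed for a test in both. Reg3g had at most 0.188 FPKM in any MPH library and 0.254 in any Kupffer library, and neither was tested. As these are bulk libraries, fewer cells of a type and less RNA per cell cannot be told apart, here or in any result that follows.

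The upstream sequences of the Reg3 pair are shown because these neighbours on chromosome 6 had like profiles over the libraries. The stretches run from 170 to 25 bases before the RefSeq start (GRCm38.p6), 5′ to 3′ on the gene's strand. In GENCODE M21 the Reg3b stretch also lies within an intron of a transcript that starts further upstream, at the first base of the gene span given above, and shares no base with an exon. Capitals mark a match to the STAT motif TTCNNNGAA in Reg3b and to the NF-kappa-B consensus in Reg3g.
Reg3b, chr6:78370715-78370860, +: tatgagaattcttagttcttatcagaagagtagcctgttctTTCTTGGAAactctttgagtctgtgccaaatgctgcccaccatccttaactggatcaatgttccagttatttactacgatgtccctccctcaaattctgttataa
Reg3g, chr6:78468899-78469044, −: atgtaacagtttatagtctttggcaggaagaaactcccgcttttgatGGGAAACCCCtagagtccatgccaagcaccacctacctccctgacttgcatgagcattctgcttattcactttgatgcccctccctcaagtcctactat
Over the 250 bases before the start the pair was identical at 70.0% of 247 aligned positions. The STAT match of Reg3b lay 129 to 121 bases upstream. The aligned letters in Reg3g read TGATGGGAA, which is no match to that motif.

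Both strands of the 250 bases were searched for 3 motifs in the 7 genes with an entry in the RefSeq table: TTCNNNGAA, the AP-1 motif TGANTCA and the NF-kappa-B consensus. Of 32851 windows of that length, 7.02% held the STAT motif, 6.75% the AP-1 motif and 7.25% the NF-kappa-B consensus. Among the members, Reg3b held the STAT motif, and Reg3g and Asprv1 the NF-kappa-B consensus. A match describes letters in a window and shows no binding.

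Slpi was the member that passed the test in both MPH and Kupffer. In MPH it had 7.45, 9.06 and 5.39 FPKM in Sham and 24.9, 24.9 and 33.4 in BDL, so each BDL library was above each Sham library. It rose by 1.80 ± 0.24 (adjusted p = 0.0278). In Kupffer it had 34.1, 23.3 and 33.5 FPKM in Sham and 64.1, 107 and 99.0 in BDL, again with no overlap. It rose by 1.53 ± 0.26 (adjusted p = 0.0419), and by 1.44 without the third BDL library (0.0282). The difference between these 2 responses was 0.28 (adjusted p = 0.730). The MPH call was lost without any 1 of the 3 Sham libraries, or without BDL library 2 or 3, with adjusted p of at most 0.120. It was also lost with values scaled to recovered reads (0.0530).

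In BECs, Slpi had 8.45, 8.35 and 34.9 FPKM in Sham and 54.4, 29.5 and 149 in BDL. The third Sham library lay above the second BDL library, so the groups overlapped, with a log2 difference of 2.11 ± 0.75 (1.49 without the third BDL library). Among male libraries, the Sham values were 8.45 and 8.35 and the BDL value 54.4, while the female Sham value was 34.9 and the female BDL values were 29.5 and 149.

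Slpi (chr2:164354070-164389095, − strand) holds a microRNA gene, Mir7678 (chr2:164354313-164354383, − strand). The hairpin lies in an intron and shares 1 base with the last exon of the main transcript. Its sequences are shown because the table lists this microRNA, annotated on the strand of Slpi, as a gene of its own. The 2 mature forms follow, from RefSeq, with bases 2 to 8, the seed, in capitals.
mmu-miR-7678-5p: uUACAAGGgcuggauaggaau
mmu-miR-7678-3p: uUUCCUUAcuuucucuuguagc
Mir7678 had 1 read over the BECs Sham libraries and 80 over the BDL libraries, and 8 and 41 in Kupffer. A poly(A) library does not measure the mature forms, and these reads cannot be told apart from reads of unspliced or overhanging Slpi transcript.

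Asprv1 (chr6:86628164-86629710, + strand) had the widest difference after ligation in Kupffer of the members. There it had 4.23, 1.46 and 1.53 FPKM in Sham and 16.6, 21.4 and 45.4 in BDL, with no overlap. It rose by 3.04 ± 0.45 (adjusted p = 0.0348), and by 2.64 without the third BDL library (0.0136). In MPH, values of 0.923, 0.512 and 0.150 in Sham stood against 1.91, 1.98 and 5.12 in BDL. These did not overlap either, but the difference of 1.33 ± 0.35 did not pass (adjusted p = 0.0978; 0.98 and 0.151 without the third BDL library). Asprv1 reached 1 FPKM in MPH only after ligation, so it entered the test through the group in which it was high. The response of MPH minus that of Kupffer was −1.71 ± 0.61 (adjusted p = 0.177). In BECs, Asprv1 had 0.684, 1.02 and 1.49 FPKM in Sham and 15.0, 13.4 and 32.3 in BDL, with a BDL mean 19.0 times the Sham mean and a log2 difference of 3.27 ± 0.34 (2.89 without the third BDL library).

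The upstream sequences of Slpi and Asprv1 are shown since Asprv1 was the member nearest to Slpi over the 18 libraries. They cover the same distances from the start as for the Reg3 pair, and that of Slpi also lies in an intron of a longer annotated Slpi transcript. Capitals mark the NF-kappa-B match, 161 to 152 bases before the start of Asprv1.
Slpi, chr2:164356532-164356677, −: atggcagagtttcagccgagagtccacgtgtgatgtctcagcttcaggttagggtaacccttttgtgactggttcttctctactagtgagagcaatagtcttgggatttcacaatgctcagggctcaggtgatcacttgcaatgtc
Asprv1, chr6:86628004-86628149, +: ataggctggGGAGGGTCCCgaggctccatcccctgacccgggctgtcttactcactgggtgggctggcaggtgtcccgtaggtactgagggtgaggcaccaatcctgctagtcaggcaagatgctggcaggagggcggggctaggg

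Markers of myeloid cells also had higher median sums in BDL in each cell type, although neutrophil sums overlapped in MPH and monocyte sums in Kupffer. Summed FPKM of 11 neutrophil markers ran from 30.5 to 133 in MPH Sham and 119 to 304 in BDL, from 53.6 to 146 and 326 to 522 in BECs, and from 339 to 380 and 901 to 2496 in Kupffer. Of 10 tested, 5 were called higher in BECs, 4 in Kupffer and 0 in MPH, where 9 had a positive difference. Of all genes tested, 7.66%, 3.88% and 1.57% were called in these cells, in either direction. At most 1 of the 11 was at 0 in any library. Of the monocyte markers, 2 of 5 tested were called higher in MPH, where F13a1 reached 1 FPKM in BDL alone, 3 of 7 in BECs and 2 of 7 in Kupffer. Their sum in MPH was 102 to 239 FPKM in Sham and 341 to 495 in BDL, in BECs 70.4 to 81.5 and 133 to 297, and in Kupffer 167 to 441 and 410 to 559. The third Kupffer BDL library was highest in both neutrophil markers and Asprv1, and lowest in Kupffer cell markers. Slpi was instead highest in the second, at 107 FPKM, which had the lowest neutrophil sum of the Kupffer BDL libraries, 901. Summed Kupffer cell markers in Kupffer were 7759 to 9094 FPKM in Sham and 18230, 12835 and 2835 in BDL. Hepatocyte markers also moved in Kupffer: all 12 had a positive difference (median 1.68), none was called, and their sum was 510 to 1178 FPKM in Sham and 1412 to 4504 in BDL. In Sham, Kupffer had more than either other cell type in neutrophil markers, and the highest Slpi and Asprv1 means, at 30.3 and 2.41 FPKM. Summed FPKM of 5 mesothelial markers ran from 3.66 to 8.44 in MPH Sham and from 29.5 to 35.2 in BDL. In Kupffer it ran from 3.83 to 9.52 and from 27.6 to 73.7. In BECs it ran from 11.1 to 33.6 and from 17.7 to 286, and the third BDL library was highest in it and in Slpi. The part of any of these cells in the results was not tested.

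**Figure D2:**
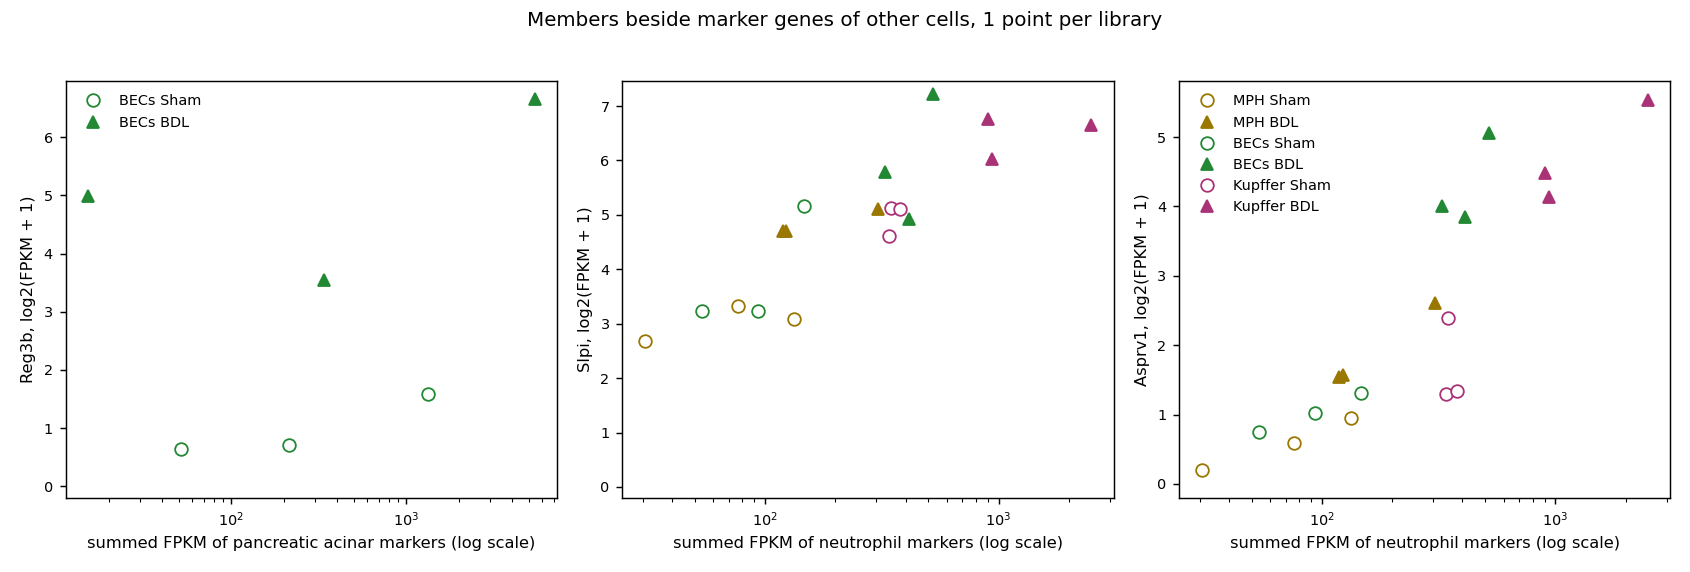
Reg3b in the 6 BECs libraries against summed pancreatic acinar markers (left), and Slpi (middle) and Asprv1 (right) in all 18 libraries against summed neutrophil markers, as log2(FPKM + 1) against summed FPKM on a log scale, with 1 point per library, open for Sham and filled for BDL. In BECs, Reg3b was at 30.8 FPKM in the BDL library with the lowest acinar sum (15.1 FPKM) and at 100 in that with the highest (5409). In MPH and Kupffer the BDL libraries lay above the Sham libraries in Slpi.

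Pigr was the member whose BDL values in BECs all lay below its Sham values. It had 165, 321 and 132 FPKM in BECs Sham and 4.31, 14.5 and 15.5 in BDL, a log2 difference of −4.12 ± 0.53. Without the third BDL library the difference was −4.41. In MPH, the Sham values of 196, 282 and 538 overlapped the BDL values of 309, 192 and 64.4, and the difference of −0.98 did not pass (adjusted p = 0.405; −0.34 and 0.768 without the third BDL library). Kupffer had 7.90, 4.01 and 2.14 FPKM in Sham and 2.10, 8.08 and 5.33 in BDL, a difference of 0.12 (adjusted p = 0.915; −0.05 with values scaled to recovered reads). Part of the Pigr transcript, up to 105 bases, also occurs in other genes, so a share of its reads may be ambiguous. Pigr lies at chr1:130826684-130852249 (+ strand).

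Hepatocyte markers were also lower in BECs after ligation: all 12 had a negative difference, 1 of them called. Their sum was 1686 to 4106 FPKM in Sham and 206 to 742 in BDL, without overlap. Mean Pigr in BECs was 60.8% of its MPH level in Sham and 6.06% in BDL, while Alb was 3.63% and 0.513%. Relative to MPH, Pigr stood higher than Alb in BECs in both conditions, and both were lower in BDL than in Sham. The part of hepatocyte RNA in the difference after ligation was not tested. The summed gallbladder and goblet cell markers also differed, at 47.6 to 135 FPKM in Sham and 19.9 to 36.5 in BDL.

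**Figure D3:**
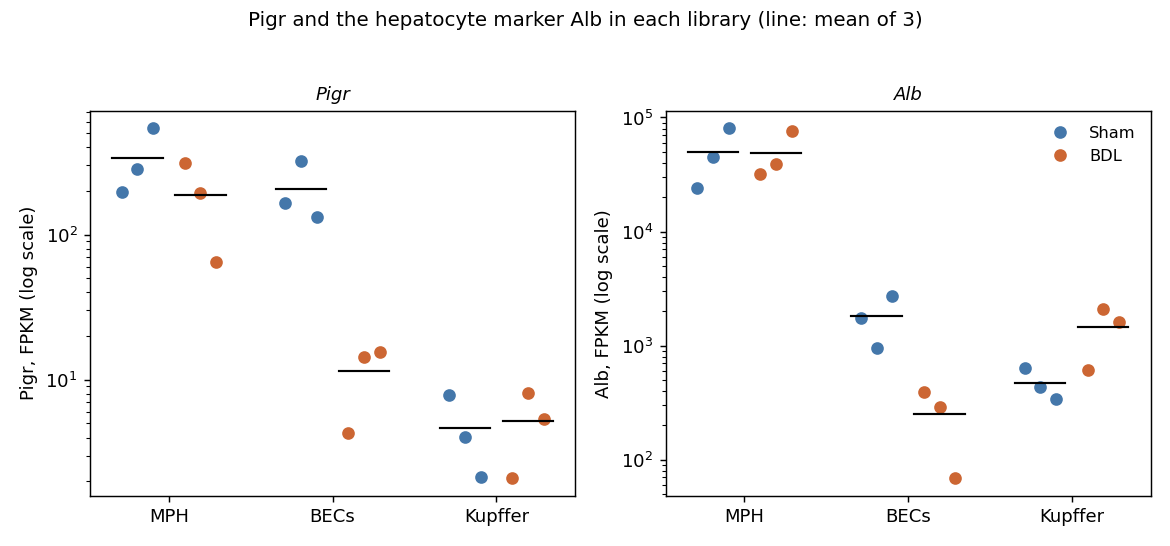
FPKM on a log scale of Pigr (left) and of the hepatocyte marker Alb (right) in each library of the 3 cell types, Sham in blue and BDL in orange, with a line at the mean of 3. Mean Pigr in BECs was 60.8% of its MPH level in Sham and 6.06% in BDL, and mean Alb was 3.63% and 0.513%.

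Muc1, Clu and Wfdc2 had their highest levels in BECs in both conditions, and their Sham and BDL values overlapped there. Muc1 (chr3:89229057-89233381, + strand) had 140, 178 and 93.2 FPKM in BECs Sham and 65.6, 91.8 and 121 in BDL, with a log2 difference of −0.55 (−0.76 without the third BDL library). Its highest value outside BECs was 1.55 FPKM, in MPH Sham. Clu (chr14:65968483-65981547, + strand) had 2665, 2604 and 2468 FPKM in BECs Sham and 2613, 2411 and 1618 in BDL, a difference of −0.25. Without the third BDL library, the lowest, it was −0.04. Wfdc2 (chr2:164562413-164568510, + strand) had 49.3, 74.9 and 54.1 in Sham and 61.0, 75.4 and 75.4 in BDL, a difference of 0.26 (0.21 without that library).

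Elsewhere the mean of Clu was higher in BDL without passing the test. In MPH it had 326, 322 and 618 FPKM in Sham and 912, 900 and 473 in BDL, which overlapped (0.86, adjusted p = 0.266). Without the third BDL library, the groups did not overlap and the difference was 1.17 (adjusted p = 0.201). In Kupffer, Clu had 57.4, 41.7 and 22.4 against 47.7, 73.0 and 52.9 (0.58, adjusted p = 0.381). Wfdc2 in MPH had 15.7, 10.3 and 6.90 in Sham and 9.29, 8.06 and 11.6 in BDL (−0.11, adjusted p = 0.857). In Kupffer it was under 1 FPKM in all libraries but the second BDL library, at 1.94, and was not tested.

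Counted over the members, 5 of 8 entered the test in MPH and 1, Slpi, was called higher, beside 0.714% of all 12323 genes tested (1.57% in either direction). In Kupffer 4 entered and 2, Slpi and Asprv1, were called higher, beside 1.47% of 12748 genes (3.88% in either direction). Among the members that entered, groups did not overlap, with BDL higher, for 2 of 5 in MPH and 2 of 4 in Kupffer, Slpi and Asprv1 in both. Asprv1 was under 1 FPKM in all MPH Sham libraries, so the filter could admit it there only without overlap. Nothing is read from its place in the MPH count, or in the MPH median below. Of all genes tested, 11.8% in MPH and 16.7% in Kupffer did so, and 30.2% and 32.3% in either direction. Among the members below the level needed, Reg3b in MPH, and Reg3b and Reg3g in Kupffer, had higher values in BDL without overlap. These rest on 54, 24 and 10 reads in BDL, against 0 in Sham. The shares above cover tested genes only, so nothing is read from these members. In BECs, Reg3b, Reg3g and Asprv1 had higher and Pigr lower values without overlap, where 31.8% of 13573 tested genes had none and 7.66% were called. That contrast was treated as used in choosing the genes, so nothing is read from this count. The median difference of the 5 and 4 members that entered was 0.86 in MPH and 1.05 in Kupffer, and that of all genes tested −0.06 and 0.03. With values scaled to recovered reads, the median of all genes in Kupffer moved by −0.17, and the differences of Slpi (1.32) and Asprv1 (2.88) were still called there.

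**Figure D4:**
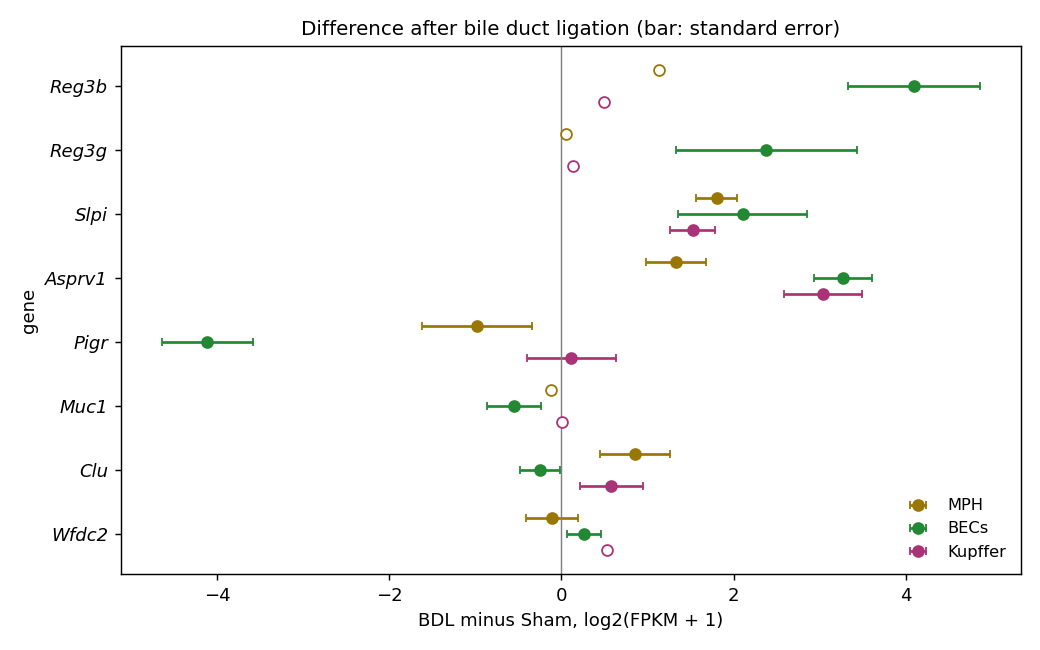
BDL minus Sham on the log2(FPKM + 1) scale for each gene in MPH, BECs and Kupffer. Filled points entered the test and have a bar of 1 SE, and open points stayed below the level needed. Slpi ranged from 1.53 to 2.11 over the 3 cell types, while Pigr differed from −4.12 in BECs to 0.12 in Kupffer.

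Levels before ligation were compared between cell types, and 6 of 8 members entered each test. Of these, 3 were called higher in BECs minus MPH and 4 in BECs minus Kupffer. In MPH minus Kupffer 3 were called higher and 2 lower. Large shares of all genes were called too, as given below, so nothing is read from these counts. In the 9 Sham libraries, Muc1 was higher in BECs than in MPH by 6.29 (adjusted p = 9.36e-07), Clu by 2.68 (0.000235) and Wfdc2 by 2.38 (7.05e-05), where 58.3% of 14466 genes were called. Slpi (0.85, adjusted p = 0.156), Pigr (−0.69, 0.261) and Asprv1 (0.45, 0.254) were not called. Against Kupffer, where 43.9% were called, BECs were higher in Muc1 by 6.48 (9.44e-07), in Clu by 6.06 (2.76e-06), in Wfdc2 by 5.59 (9.06e-07) and in Pigr by 5.21 (3.97e-05). Slpi (−1.07, adjusted p = 0.102) and Asprv1 (−0.65, 0.132) did not pass. Without the third BECs Sham library, Slpi was called lower in BECs than in Kupffer (−1.72, adjusted p = 0.000879).

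Between MPH and Kupffer 56.8% of genes were called in Sham. Pigr was higher in MPH by 5.90 (adjusted p = 1.98e-05), Clu by 3.38 (7.77e-05) and Wfdc2 by 3.21 (1.81e-05). Slpi was lower in MPH by 1.92 on the log2 scale (adjusted p = 0.00804) and Asprv1 by 1.10 (0.0160), and Muc1 was not called (0.19, adjusted p = 0.631). Asprv1 in MPH, and Muc1 and Wfdc2 in Kupffer, were under 1 FPKM in all 3 Sham libraries, so each entered these Sham tests through the cell types in which it was higher. The deposited scaling differs between MPH and the other cells. With values scaled to recovered reads, the median of all genes moved by 0.54 in BECs minus MPH and by −0.59 in MPH minus Kupffer, and Slpi was then called higher in BECs than in MPH (1.50, adjusted p = 0.0268). Pigr in BECs minus MPH was then 0.06 (0.920). The Asprv1 call between MPH and Kupffer was lost without the third MPH Sham library (0.0537).

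The response to ligation was also compared between MPH and Kupffer. Besides Slpi and Asprv1, above, Pigr (−1.10), Clu (0.28) and Wfdc2 (−0.64) had adjusted p from 0.489 to 0.836 for MPH minus Kupffer, where 0.404% of 14101 genes were called. Scaling to recovered reads moved the median of all genes by 0.21 in this contrast. With the title number as a replicate block, 469 genes were called in place of 57, and the members' calls stayed as they were.

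Genes that work beside the members were followed from lists, whose medians are given next to those of all genes tested (−0.06 in MPH, −0.03 in BECs and 0.03 in Kupffer). The counts of calls stand beside the 1.57%, 7.66% and 3.88% of all genes called in these cells. Of 31 further antibacterial effectors, Lcn2, the siderophore-binding lipocalin, rose in all 3 cell types: from a mean of 40.1 to 1101 FPKM in MPH (5.40, adjusted p = 0.0358), from 50.3 to 204 in BECs (2.01, 0.0125) and from 5.52 to 87.0 in Kupffer (3.49, 0.0341). It was 1 of 15 tested that passed in MPH. In BECs 3 of 19 passed, with S100a8 (3.13) and S100a9 (2.82), the calprotectin chains, which are also neutrophil markers. In Kupffer 3 of 12 passed, with S100a8 (2.04) and the ribonuclease Rnase4 (1.48). Mean Lcn2 and Rnase4 in BDL were 1101 and 800 FPKM in MPH and 87.0 and 62.9 in Kupffer, where hepatocyte markers were also higher, as given above. The part of hepatocyte RNA in these Kupffer values was not tested. The medians were 0.25 in MPH, 0.22 in BECs and 0.47 in Kupffer.

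Among relatives of Slpi and Wfdc2, the smallest adjusted p of the 6 WFDC genes tested in BECs was that of Wfdc17 (1.11, adjusted p = 0.0577), followed by Wfdc18 (3.18, 0.0689). In Kupffer, Wfdc21 (3.16, 0.0513) and Wfikkn1 (−0.34, 0.252) led the 5 tested, and in MPH Wfdc1 (−0.84, 0.322) and Wfdc17 (0.60, 0.503) led the 3. The medians were −0.12 in MPH, −0.39 in BECs and −0.13 in Kupffer. Of the neutrophil serine proteases, a class that Slpi inhibits, Prtn3 had 3.53 and 12.6 FPKM in Kupffer Sham and BDL (1.48, adjusted p = 0.0846) and Ctsg a difference of 0.48 (0.441). Elane, the elastase itself, had differences of 0.06 in MPH (0.950) and 0.40 in BECs (0.774), and Prtn3 of −0.92 (0.599) and 0.50 (0.524).

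Mucins and trefoil factors, the partners of Muc1 in the mucus layer, had negative differences in BECs for all 6 tested, with a median of −2.03. Muc3 stood at −3.08 (adjusted p = 0.0746) and Fcgbp, a mucus protein of goblet cells, at −2.41 (0.0778). The single one tested in the other cells was Tff3, at 0.40 in MPH (0.924) and 1.39 in Kupffer (0.235).

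Partners of Pigr gave 1 call: Jchain, the joining chain of the dimeric IgA that Pigr carries, fell in Kupffer by 1.17 on the log2 scale (adjusted p = 0.0465), from a mean of 40.1 to 16.9 FPKM. All 8 B and plasma cell markers, Jchain among them, had negative differences there, and their sum was 443 to 483 in Sham and 107 to 326 in BDL. In BECs, Igha, the IgA heavy chain, had means of 40.5 FPKM in Sham and 72.0 in BDL (0.58, adjusted p = 0.601), and Tnfsf13b, the B cell factor BAFF, differed by 0.17 (0.647). In MPH, Igha (0.22, 0.707) and Mzb1 (0.11, 0.893) had the smallest p. Over the list the median was 0.10 in MPH, 0.17 in BECs and −1.34 in Kupffer.

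Of the cytokines that induce proteins of this kind, 4 of 10 tested in BECs rose: Osm (2.46, adjusted p = 0.00951), Il1a (2.34, 0.00998), Il1b (2.00, 0.0165) and Il6 (1.14, 0.0398). In MPH 2 of 7 rose, Il6 (2.87, adjusted p = 0.0466) and Osm (1.54, 0.0372). In Kupffer the smallest adjusted p of 10 was that of Ifng (−1.35, 0.111), followed by Osm (0.97, 0.138). The medians were 1.37 in MPH, 1.31 in BECs and 0.58 in Kupffer. Osm and Il1b are made by myeloid cells, whose markers were higher in the same libraries, as given above. Of the receptors and signal proteins, Il6ra (0.65) and Il17ra (1.08) rose in BECs, 2 of 21 tested (9.52%), a share near that of all genes called there. Il17ra (0.94), Tlr2 (0.76) and Stat3 (0.81), the factor downstream of the IL-6 family, rose in Kupffer, 3 of 20. Lifr, the receptor chain for leukaemia inhibitory factor, fell by 2.57 in MPH and by 1.08 in Kupffer on the log2 scale. The list had medians of 0.49 in MPH, 0.03 in BECs and 0.31 in Kupffer.

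Beside Clu, 9 clusterin receptors and complement regulators were listed. Vtn (vitronectin), a complement inhibitor made mostly by hepatocytes, fell in BECs by 2.74 on the log2 scale (adjusted p = 0.0153), 1 of 6 tested. Trem2, a myeloid receptor that binds clusterin, had differences of 1.43 in MPH (adjusted p = 0.0746) and 1.39 in Kupffer (0.0731). The complement regulator Cd59a in Kupffer (−0.98, 0.175) did not pass. Medians were −0.14 in MPH, −0.46 in BECs and 1.09 in Kupffer.

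Of the epidermal barrier genes, the setting in which Asprv1 is best known, Krt14 (2.33, adjusted p = 0.00299) and Sprr1a (2.31, 0.0466) rose in MPH and Sprr1a (1.22, 0.0433) in Kupffer. Each of these was under 1 FPKM in all Sham libraries, at most 0.574 in MPH and 0.254 in Kupffer, so it entered the test through the BDL group in which it was high. In BECs, Ivl (1.06, adjusted p = 0.226) and Lor (1.09, 0.306) led the 4 tested. The medians were 1.93 in MPH, 1.07 in BECs and 1.22 in Kupffer. Krt14 is also a mesothelial marker. In MPH, 2 of 4 tested mesothelial markers were called higher, Krt14 itself among them. In Kupffer 3 of 5 were called higher, and in BECs 0 of 3.

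The Kupffer calls of members and lists rest on all 3 Sham libraries. Without any 1 of them limma called 0 of 12748 genes, with 1859 to 2389 at an unadjusted p under 0.05, and the Kupffer calls of Slpi and Asprv1 were lost (adjusted p of at most 0.191). Both were also lost without the second Kupffer BDL library, which left 21 genes called. Without the third, 2324 genes were called. The list calls in BECs come from 1040 genes, against 89 to 1049 called without 1 library (fewest without the first Sham library), and those in MPH from 194, with 17 to 187 (fewest without the second BDL library). Without the third BDL library, Il6 (adjusted p = 0.0612) and Il6ra (0.0504) were not called in BECs, while 6 of 10 cytokines and 4 of 19 antibacterial effectors were. Without the first BECs Sham library, 1 of 10 and 1 of 19 were, and Il1a (0.0514), Il1b (0.0649) and Vtn (0.0657) were lost. Il17ra was lost in BECs without the first Sham (0.0757), first BDL (0.0602) or second BDL library (0.0554). Whichever library was left out, Il6 was not called in BECs (adjusted p from 0.0517 to 0.127). Il6ra was called there only without the third Sham library (0.0461). S100a8 and S100a9 were called in BECs only without that library or without the third BDL library. In MPH, Lcn2 (adjusted p = 0.0717), Il6 (0.0928), Osm (0.0788) and Lifr (0.0618) were not called without the third BDL library. Osm and Lifr were not called in MPH whichever library was left out. Lcn2 was called there only without the first Sham library (0.00908), and Il6 only without the second (0.0492). Sprr1a was called in MPH only without the third BDL library (0.0496). With sex as a covariate Slpi had an adjusted p of 0.0734 and Asprv1 of 0.0688 in Kupffer, with the same differences.

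The genes with the most similar profile were found over the 18 libraries, each scaled to mean 0 and SD 1, by root mean square distance among 13630 genes (median about 1.4 for each member). Muc1 had the closest neighbours, Prom1 (0.0749), Myo5c and Slc44a4. Clu was nearest to Plxnb1 (0.173), Slc39a4 and Wwc1, and Wfdc2 to Hook2 (0.240), Dsg2 and Dsp, the last 2 being parts of desmosomes. Clu and Wfdc2 lay 0.291 apart. Pigr was nearest to Slc2a2 (0.284), the glucose transporter of hepatocytes, Cyp4f14 and Aadac.

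Asprv1 was nearest to F13a1 (0.301), Ccr1 and Vcan, and Slpi to F13a1 (0.429), Retnlg (0.435) and Asprv1 (0.458). F13a1 and Vcan are in the monocyte list and Retnlg is in the neutrophil list. Reg3b was nearest to Madcam1 (0.404), Reg3g (0.417) and Cbx3-ps8, and Reg3g to Serpinb5 (0.334), Lor and Cfd. Distances rest on the same libraries and on cell type levels as well as on ligation.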

How the data were processed

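Per the submitters' processing notes, the tools were CASAVA 1.8, fastp, HISAT2 2.0.5, featureCounts 1.5.0-p3 and DESeq2 1.20.0, with GRCm38 (mm10). The authors deposited 1 table of FPKM for 54532 genes in 18 libraries, and all of its value columns matched a sample. The sources used here do not give strandedness, the annotation release or the handling of reads that map more than once. With exon lengths of GENCODE M21, FPKM gave whole reads in all libraries (tolerance 0.02) for 98.2% of 53710 genes. The implied library size over the reads in genes was 0.516 to 0.741 in MPH and 0.934 to 1.22 elsewhere. Replicates differed beyond read sampling (chi-square per degree of freedom 16.1 to 214).

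Values were analysed as log2(FPKM + 1) in R 4.3.3 by limma 3.58.1, with linear fits and 2-sided moderated tests that used the trend and robust options. Genes entered when 3 or more libraries had an FPKM of 1 or more, with Benjamini-Hochberg adjustment over all genes tested. BDL was compared with Sham within each cell type, cell types over the 9 Sham libraries, and responses as an interaction over 12 libraries. The pipeline was checked on simulated data with 1 relative spread for all genes of a cell type and no outlying library. That check does not show how the pipeline behaves with the libraries that stood apart here. Limma voom on recovered reads called 126 genes in MPH, 1084 in BECs and 566 in Kupffer, against 194, 1040 and 494 with the test used here. The number in the titles was taken to pair 3 MPH and Kupffer libraries, whose deviations from their group means had correlations of 0.213 to 0.324 and whose sexes matched. Overlap with other genes was sought with BLAST 2.17.0 (50 bases at 98% identity). Promoters and microRNAs are from RefSeq (GRCm38.p6).

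The members, gene lists and motifs were chosen with earlier results of these data known. Named are all members, up to 4 called genes per list and cell type (or the 2 of smallest p), and the 3 nearest genes per member. One gene under this rule is not reported here. Other settings were pseudocount 0.1, no filter, FPKM of at least 5, scaling to recovered reads, quantile normalization, plain eBayes, 1 model of all libraries, voom, the replicate block and leaving out each library. Sex as a covariate was chosen after seeing the data.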

Additional observations from a re-analysis of the deposited data

How the results depend on the processing

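Of 571 alternative values of tested members, 545 stayed on the same side of the threshold, 23 lost a call and 3 gained one. That total includes values that were never called and the contrasts between cell types. The calls after ligation held less often. Slpi stayed called in 8 of 15 alternatives in MPH and 7 of 15 in Kupffer, and Asprv1 in 9 of 15 in Kupffer. No called value changed sign, but 9 values that were not called did, in 5 results: Wfdc2 in MPH, Pigr in Kupffer, Pigr between BECs and MPH and Muc1 between MPH and Kupffer in Sham, and Clu in the interaction. Of 389 values with no test (BECs after ligation, or under the level needed), 16 moved by more than the spread of the libraries, 2 of them of Asprv1 in BECs, and 8 changed sign. Counts of called genes varied more. In MPH the count of 194 became 117 at pseudocount 0.1, 18 with no filter, 101 scaled to recovered reads, 126 with voom and about 2.2e+03 with all 18 libraries in 1 model, and 17 to 187 without 1 library. In BECs 1040 became 81 with no filter and 576 with sex as a covariate, and 89 to 1049 without 1 library. In Kupffer 494 became 323 at pseudocount 0.1, 1222 in 1 model, 1 with sex as a covariate and 0 with no filter (limma, 38269 genes tested, 3254 at an unadjusted p under 0.05), and 0 to 2324 without 1 library. BECs against Kupffer in Sham fell from 6350 to 4161 at FPKM of at least 5, where fewer genes were tested. The interaction count of 57 became 11 at pseudocount 0.1, 24 with no filter, 12 scaled to recovered reads, 20 with quantile normalization, 89 with plain eBayes, 716 in 1 model, 9 with voom, 36 with sex as a covariate and 469 with the replicate block, and 3 to 386 without 1 library. Scaling to recovered reads moved the split of higher and lower calls from 402 and 638 to 522 and 468 in BECs, from 188 and 306 to 145 and 533 in Kupffer, from 4091 and 4340 to 7159 and 2210 in Sham BECs against MPH, from 4145 and 4066 to 2264 and 8096 in Sham MPH against Kupffer, and from 6 and 51 to 4 and 8 in the interaction. The cause was not tested. The replicate block changed no call of a member. Asprv1 in MPH was called in 1 model (adjusted p = 0.0443). Slpi in MPH was lost with no filter (0.0800), and in Kupffer with no filter (0.191), quantile normalization (0.0572) and 1 model (0.0820). Asprv1 in Kupffer was lost with no filter (0.150), and between MPH and Kupffer in Sham with no filter (0.0562). Members under 1 FPKM in most libraries rest on few reads, which limits their precision.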
